A study of Oryza sativa with 9 samples.

Results

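The 59 rice loci described here had root transcripts that were abundant in the salt-tolerant cultivar SR86, in salt water as well as in fresh water, and scarce in the common rice R1. They were selected on the measured values themselves. A nuclear locus was taken when its lowest value in the 6 SR86 libraries was at least 5 FPKM and at least 8 times its highest value in the 3 R1 libraries. FPKM is a count of sequenced fragments scaled by the length of the transcript and by the number of mapped fragments, so that levels of genes of different length can be set side by side. Between libraries it is comparable only up to a scaling, whose effect is given with the comparison of the waters. Of 57624 nuclear loci in the deposited table, 11449 reached 5 FPKM in all 6 SR86 libraries, and the 59 loci make up 0.515% of these. The difference between SR86 and R1 is therefore what chose the loci, and it is given below as a description, with no test.

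The study asked which root transcripts set a rice that lives in sea water apart from a common rice, and which of them respond to the water. Each group held 3 biological replicates. The groups were SR86 in salt water (SW), SR86 in fresh water (FW) and R1 in fresh water, and the libraries are named by group and replicate number, as in SW1 or FW3 for SR86. Both cultivars are labelled as japonica Oryza sativa, SR86 under the name Sea_Rice_86 and R1 under the name Normal_Rice_R1. The study, in contrast to that label, places SR86 with the indica rices from its genome sequence, near the branch point of indica and japonica. It describes R1 as a japonica and indica hybrid of low salt tolerance that is genomically similar to SR86. The cultivars are thus not a pair that differs at a single known gene. All libraries came from whole roots taken a month after planting. R1 in salt water was not analysed here, so a difference between the cultivars was seen in fresh water only, whereas the salt-water values belong to SR86 alone. The salt content of the water is not in the labels. One sentence of the methods assigns the waters to the cultivars the other way round, and the labels were followed.

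Cultivars of a crop differ in which genes they carry and in how strongly the shared ones are transcribed, so a comparison between cultivars commonly finds transcripts that are abundant in the roots of a single cultivar whatever the condition. Gene classes known for such differences in plants include the intracellular immune receptors of the nucleotide-binding, leucine-rich repeat class, which recognise proteins of pathogens and often lie in clusters, and the transposable elements, which copy or move themselves within the genome. In the rice annotation used here, "expressed protein" is the name of a gene model that has transcript support and no assigned function.

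The reads of both cultivars were aligned to transcripts of the japonica reference cultivar Nipponbare. A value near 0 in R1 can therefore reflect little transcript or a sequence that differs from the reference, and the FPKM values cannot tell these apart. Reads that map to several near-identical transcripts were split between them by the authors' estimator, so the values of transposons and of resistance genes with close copies are uncertain. The library kit kept the strand, but whether the estimation used it is not stated, so loci that overlap on opposite strands may share reads. The libraries were of bulk roots, in which fewer cells of a type and less RNA per cell cannot be told apart.

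The depth of the libraries differed by the estimate below, and depth limits the low values most. Relative depth was estimated from the commonest ratio of FW1 values to those of each other library. Only features undetected in most libraries were used, 64 to 270 of them per library. By this rough estimate the SW libraries were 1.83 to 2.48 times as deep as FW1, the shallowest library. FW2 and FW3 were 1.42 and 1.17 times and the R1 libraries 1.05 to 1.75 times as deep. Summed over all features, FPKM came to 622262 to 647564 in SR86 SW, 705081 to 726598 in SR86 FW and 641897 to 672686 in R1. As a check on the tissue, the 5 loci that the study's lists annotate as chlorophyll-binding proteins or Rubisco small subunits, which are made in green tissue, summed to 6.61 to 11.9 FPKM in SR86 SW, 25.8 to 60.0 FPKM in SR86 FW and 9.46 to 11.6 FPKM in R1. FW1 had the highest of these sums. The sum of these markers moves with the comparison of the waters, and its part in that comparison was not tested. The lists were drawn up from differences between these same libraries, so green-tissue loci that did not differ are left out of the sum.

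**Figure D1:**
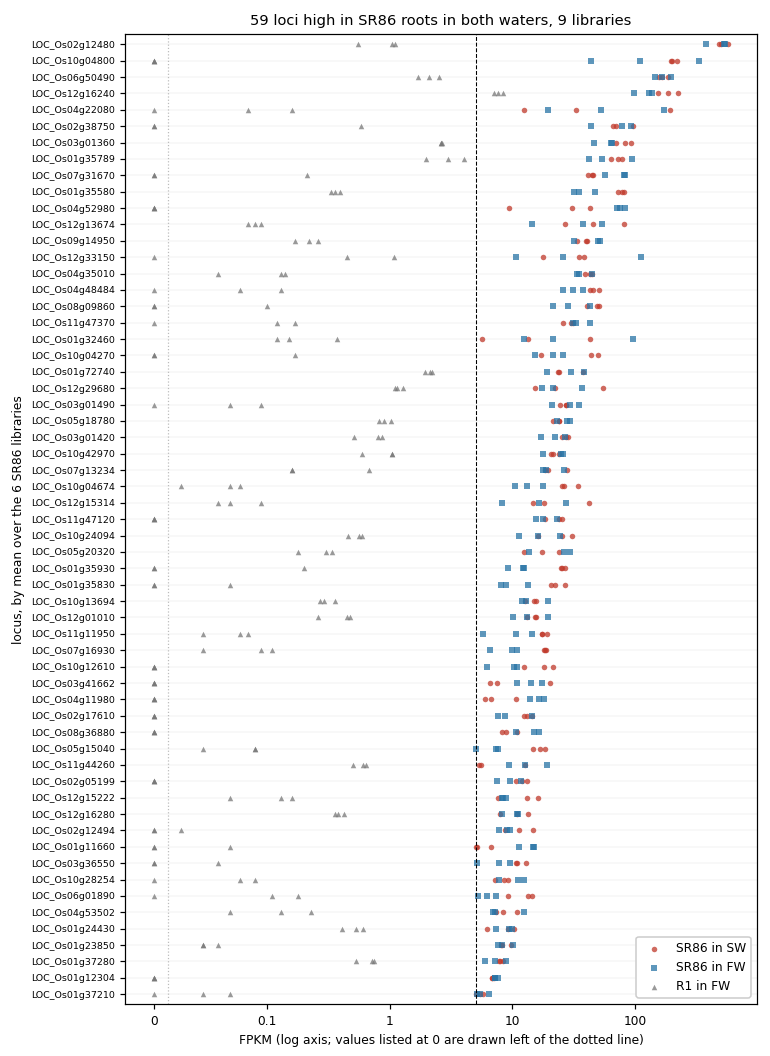
FPKM of the 59 loci in each of the 9 libraries on a log axis, sorted by mean over SR86, with SR86 in SW as circles, SR86 in FW as squares and R1 in FW as triangles. The dashed line is the floor of 5 FPKM, and the R1 points lie left of the SR86 points at every locus because the rule required it, with the highest R1 value at 8.32 FPKM.

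Most of the 59 loci have no function named in the annotation used here. The study's lists, which were themselves drawn up from differences between these libraries and are not independent of them, annotate 36 of the loci as expressed protein, 1 as hypothetical protein and 2 with no entry, 39 in all or 66.1%. Loci with no named function make up 25.0% of the 6503 loci in those lists. The other 20 loci carry a predicted function. Of these, 5 are transposon or retrotransposon proteins, 3 are resistance proteins, 2 are defence peptides or lectins, 1 is an RNA-binding protein, 1 is a cytochrome P450, and 8 have other functions. Transposon and resistance loci were 8.47% and 5.08% of the set, against 5.72% and 2.68% of the listed loci. None of the 59 was annotated as a protein kinase, as a membrane transporter or as part of the ubiquitin pathway. These classes hold 368, 182 and 136 loci, or 5.66%, 2.8% and 2.09% of the study's lists. Their absence among 59 loci is therefore not read as a trait of the set.

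In SR86 the mean level of the loci over its 6 libraries ranged between 5.55 and 500 FPKM. The median of these means was 20.7 FPKM, against 24.6 FPKM for the other loci at or above the floor. The mean was at least 100 FPKM in 4 loci, 20 to 100 FPKM in 28, 10 to 20 FPKM in 17 and under 10 FPKM in 10. The summed FPKM of the 59 loci was 2352, 2452 and 2705 in SR86 SW, 2301, 2250 and 2243 in SR86 FW and 28.9, 31.0 and 27.3 in R1. Without LOC_Os02g12480, the most abundant locus, the sums were 1854, 1971 and 2134 in SR86 SW and 1923, 1719 and 1705 in SR86 FW. Over all 59 loci every SW sum lay above every FW sum, while without LOC_Os02g12480 the waters overlapped.

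In R1, 10 of the loci were listed at 0 in all 3 libraries, 17 were listed at 0 in 1 or 2 of them, and 32 had a value above 0 in each. The highest R1 library was under 1 FPKM for 49 loci. For the 49 loci with an R1 value above 0 in some library, the lowest SR86 value exceeded the highest R1 value by a median of 59.1-fold, and by over 50-fold at 26 of them. The ratio was 16 to 50 at 14 loci and 8 to 16 at 9 loci.

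Several loci lay close to the limits of the rule. The ratio of the lowest SR86 to the highest R1 value was 8.14 at LOC_Os01g37280, 8.30 at LOC_Os11g44260 and 8.57 at LOC_Os01g72740, all just inside. Just outside, it was 7.81 at LOC_Os04g11030, 6.66 at LOC_Os03g05334 and 6.10 at LOC_Os08g08586. LOC_Os04g11030 was left out by a narrow margin despite a lowest SR86 value of 107 FPKM, because it reached 13.7 FPKM in R1. At the floor, the lowest SR86 values of LOC_Os05g15040, LOC_Os01g11660 and LOC_Os01g37210 were 5, 5.06 and 5.08 FPKM. The values of LOC_Os12g12690, LOC_Os11g44960 and LOC_Os06g50580 were 4.90, 4.90 and 4.78 FPKM, and these loci, annotated as a Pong-type transposon, an NBS-LRR resistance protein and an expressed protein, were left out.

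The most abundant locus of the set was LOC_Os02g12480, an expressed protein on chromosome 2. It was at 498, 481 and 572 FPKM in SR86 SW, at 378, 531 and 538 FPKM in SR86 FW and at 1.10, 1.04 and 0.55 FPKM in R1. The waters overlapped, and the lowest SR86 library was 344 times the highest R1 library. The log2 difference of SW over FW was 0.11 ± 0.20 (limma estimate with its standard error, Benjamini-Hochberg adjusted p = 0.703), and the direction turned under 2 of the alternatives given in the closing section.

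LOC_Os10g04800, another expressed protein, was at 197, 218 and 198 FPKM in SR86 SW, at 333, 43.4 and 109 FPKM in SR86 FW and listed at 0 in the 3 R1 libraries. The SW libraries lay close together while the FW libraries were 7.68-fold apart and enclosed them. LOC_Os06g50490, an expressed protein on chromosome 6, was at 157, 166 and 185 FPKM in SW, 146, 195 and 165 FPKM in FW and 2.09, 2.54 and 1.70 FPKM in R1. Its SR86 libraries lay within 1.34-fold of each other, with a log2 difference between the waters of 0.01 ± 0.16 (limma, adjusted p = 0.961).

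The next expressed proteins by level were LOC_Os02g38750, LOC_Os03g01360 and LOC_Os01g35789. LOC_Os02g38750 was at 69.7, 95.9 and 65.8 FPKM in SW, 92.8, 78.5 and 43.7 FPKM in FW and 0.58, 0 and 0 FPKM in R1. LOC_Os03g01360 was at 69.2, 83.0 and 93.2 FPKM in SW, 46.1, 64.1 and 64.2 FPKM in FW and between 2.63 and 2.65 FPKM in R1. LOC_Os01g35789 was at 72.0, 78.7 and 63.4 FPKM in SW, 53.6, 93.4 and 41.7 FPKM in FW and 2.97, 4.04 and 1.97 FPKM in R1. Only at LOC_Os03g01360, of these 3, did every SW library lie above every FW library, with a log2 change of 0.50 ± 0.19 that did not pass the test (limma, adjusted p = 0.102).

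Among the loci with a named function, LOC_Os12g16240 was the most abundant. It encodes an NmrA-like protein, a family with a nucleotide-binding fold named after a fungal regulator of nitrogen metabolism. Its values were 184, 225 and 154 FPKM in SR86 SW, 98.5, 130 and 137 FPKM in SR86 FW and 7.11, 7.55 and 8.32 FPKM in R1, the highest R1 level of the set. Every SW library was above every FW library, and the log2 change was 0.62 ± 0.20 (limma, adjusted p = 0.0703).

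A pair of predicted transcription factors, which bind DNA and set the activity of other genes, differed in level and behaviour. LOC_Os04g35010, with a helix-loop-helix domain, was at 42.8, 44.8 and 38.8 FPKM in SW, 34.7, 44.6 and 33.6 FPKM in FW and 0.13, 0.14 and 0.04 FPKM in R1. LOC_Os06g01890, a MADS-box factor, was at 9.24, 13.4 and 14.3 FPKM in SW, 6.23, 5.23 and 7.27 FPKM in FW and 0.18, 0.11 and 0 FPKM in R1. The waters overlapped at the helix-loop-helix locus and did not at the MADS-box locus, whose log2 change of 0.91 ± 0.23 passed the threshold of significance and missed that of 2-fold (limma, adjusted p = 0.0379).

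Enzymes and enzyme-like proteins made up a further group of loci. LOC_Os08g09860, annotated as hydroxyacid oxidase 1, belongs to a family of flavoproteins that oxidise short hydroxy acids and release hydrogen peroxide. It was at 40.7, 51.0 and 48.9 FPKM in SW, 21.4, 28.6 and 43.0 FPKM in FW and 0, 0.10 and 0 FPKM in R1. Cytochrome P450 enzymes are haem proteins that insert oxygen into many plant metabolites. The P450 locus LOC_Os01g72740 was at 37.5, 23.4 and 23.9 FPKM in SW, 18.9, 38.5 and 30.2 FPKM in FW and 2.21, 1.92 and 2.13 FPKM in R1. SW and FW libraries overlapped at both loci.

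LOC_Os12g15314, a homologue of staphylococcal nuclease, an enzyme that cuts nucleic acids, was at 14.8, 18.0 and 42.1 FPKM in SW, 8.19, 16.3 and 27.1 FPKM in FW and 0.09, 0.05 and 0.04 FPKM in R1. Replicate 3 was the highest in both waters. LOC_Os01g12304, a predicted esterase, was low and even, at 6.82, 7.10 and 6.77 FPKM in SW and 7.19, 7.21 and 7.55 FPKM in FW, and was listed at 0 in R1. Its SW libraries lay below its FW libraries, by a log2 change of only -0.08 ± 0.16 (limma, adjusted p = 0.736).

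Proteins that act on RNA were represented by LOC_Os05g18780, of the rpp14 family of ribonuclease P subunits that take part in transfer RNA processing, and LOC_Os12g01010, with an RNA recognition motif. LOC_Os05g18780 was at 21.3, 23.8 and 23.9 FPKM in SW, 23.1, 29.6 and 27.7 FPKM in FW and 1.02, 0.82 and 0.90 FPKM in R1. LOC_Os12g01010 was at 13.04, 15.3 and 15.5 FPKM in SW, 10.1, 19.4 and 13.1 FPKM in FW and 0.47, 0.45 and 0.26 FPKM in R1. Both were detected in all R1 libraries, and at both the waters overlapped.

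Defence-related loci outside the receptor class were LOC_Os10g04270, with a jacalin-like lectin domain that binds sugars, and LOC_Os11g47120, the defensin-like peptide DEFL48. The lectin locus was at 43.3, 49.8 and 17.1 FPKM in SW, 25.7, 21.2 and 15.4 FPKM in FW and 0, 0 and 0.17 FPKM in R1. The defensin-like locus was at 25.2, 23.9 and 18.4 FPKM in SW and 17.8, 15.4 and 23.3 FPKM in FW, and was listed at 0 in R1. Defensins are small cysteine-rich peptides, many of which inhibit fungi. The waters overlapped at both loci.

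The 10 loci listed at 0 in every R1 library covered a wide range in SR86, with LOC_Os10g04800 at the top and the esterase locus LOC_Os01g12304 at the bottom. Apart from that esterase, the defensin-like LOC_Os11g47120 and a CACTA transposon described below, they were expressed proteins. LOC_Os10g12610 was at 12.5, 21.5 and 18.2 FPKM in SW and 10.2, 10.9 and 6.24 FPKM in FW. LOC_Os03g41662 was at 7.51, 20.2 and 6.61 FPKM in SW and 17.5, 14.1 and 10.8 FPKM in FW. The waters were apart at LOC_Os10g12610, with a log2 change of 0.90 ± 0.28 that was not called (limma, adjusted p = 0.0642), and overlapped at LOC_Os03g41662. LOC_Os02g17610 was at 12.4, 14.4 and 13.1 FPKM in SW and 7.68, 8.63 and 14.4 FPKM in FW. LOC_Os02g05199 was at 13.02, 10.6 and 11.9 FPKM in SW and 9.61, 11.6 and 7.41 FPKM in FW. At both of these the waters overlapped.

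LOC_Os12g29680, the hypothetical protein of the set, was at 15.1, 22.1 and 55.1 FPKM in SW, 17.4, 21.5 and 36.7 FPKM in FW and 1.28, 1.15 and 1.10 FPKM in R1, and again replicate 3 was the highest in both waters. It was not called between the waters. The loci named nowhere else were called in neither direction, and their SR86 means lay between 41.1 FPKM, at LOC_Os09g14950, and 8.73 FPKM, at LOC_Os01g24430.

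The comparison of SR86 SW with SR86 FW was free of the choice in direction, since the rule asked for the same floor and ratio in both waters. It was not free of it in size, because a locus that salt water had nearly silenced or newly switched on could not have met the floor. The comparison was made with limma on log2(FPKM + 0.5), a scale that understates the change of low values, over the 23718 features that averaged 0.5 FPKM or more across the 6 libraries. A feature was called when it changed by 2-fold or more with an adjusted p under 0.05 (Benjamini-Hochberg). With 3 libraries against 3, an exact permutation test of a single locus cannot give a p below 0.1, so the calls rest on the spread estimated across all features. The p-values set the difference between the waters against the spread between these libraries.

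Of the 59 loci, all of which were tested, 6 were called higher in SW and 2 lower. That is 10.2% and 3.39% of the set, against 8.41% and 4.29% of all features tested and 3.51% and 4.34% of the 11390 other loci at or above the floor. The share called higher was thus near that of all features and above that of the other loci at the floor, and it rests on 6 loci. At an unadjusted p under 0.05 the loci held 19, or 32.2%, against 39.1% of all features. The change was under 2-fold at 50 of the loci, or 84.7%, against 90.0% of the other loci at the floor.

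**Figure D2:**
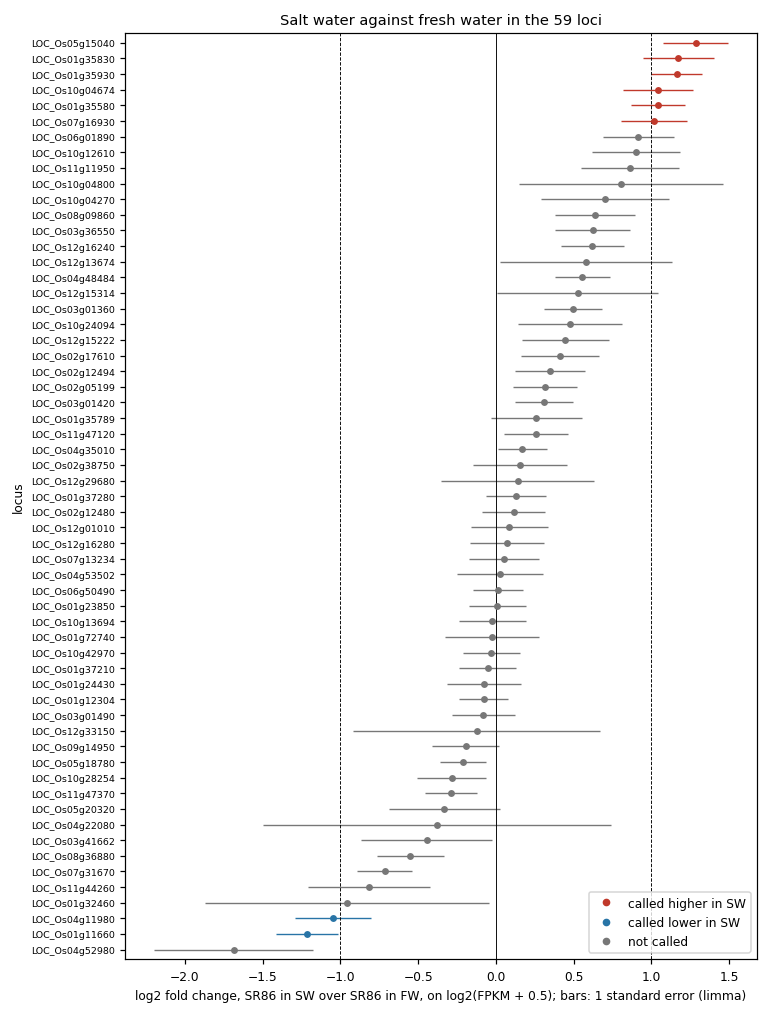
Change of each of the 59 loci between SR86 in SW and SR86 in FW as the log2 fold change on log2(FPKM + 0.5), with bars of 1 standard error from limma and dashed lines at 2-fold. The 6 loci called higher stand at the top, between 1.02 and 1.28, and the 2 called lower near the bottom, at -1.05 and -1.22, with the wide-barred LOC_Os04g52980 at -1.69 below them.

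These counts depended on single libraries. They were 0 in either direction without SW1, where 16 of the loci still had an unadjusted p under 0.05 by limma, 1 higher and 0 lower without SW2, 2 higher and 1 lower without FW1, and 3 higher and 0 lower without FW2. The calls over all features fell in the same fits, to 22 higher and 38 lower without SW1. The median log2 change of the loci was 0.13, against 0.17 for all features tested and 0.04 for the other loci at the floor. That median of all features became 0.01 under quantile normalization and 0.02 with median-ratio size factors, under which the loci called were 4 higher and 2 lower, and 2 higher and 2 lower. Of the 59 loci, 26 lay above and 33 below the median change of all features.

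Without any test, every SW library lay above every FW library at 13 loci, or 22%, and below at 6 loci, or 10.2%. Over all features tested these shares were 28.3% and 16.6%, so the loci separated the waters no more often than other features did. The waters overlapped at the other 40 loci.

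Resistance proteins took 2 of the 6 places among the loci called higher. LOC_Os05g15040, with an NB-ARC domain, the nucleotide-binding switch of plant immune receptors, was at 14.7, 16.9 and 18.5 FPKM in SR86 SW, 5, 7.58 and 7.28 FPKM in SR86 FW and 0.08, 0.08 and 0.03 FPKM in R1. The waters did not overlap, and the log2 change of 1.28 ± 0.21 was the largest rise of the set (limma, adjusted p = 0.0169). The call was lost without SW1, SW2 or FW2, with an adjusted p of up to 0.0663.

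LOC_Os10g04674, annotated as RPM1 after a receptor of Arabidopsis that detects bacterial effectors, was at 25.3, 26.4 and 34.1 FPKM in SW, 10.6, 13.1 and 17.8 FPKM in FW and 0.05, 0.06 and 0.02 FPKM in R1. Its SW libraries were all above its FW libraries, by 1.04 ± 0.23 on the log2 scale (limma, adjusted p = 0.0286), and among the fits with a library left out the call held only without FW3. It was also lost under quantile normalization and with size factors, where the change was 0.94 and 0.88. The other RPM1 locus, LOC_Os11g11950, was at 19.2, 17.3 and 17.5 FPKM in SW, 5.77, 10.6 and 14.6 FPKM in FW and 0.07, 0.06 and 0.03 FPKM in R1. It was not called, with a log2 change of 0.86 ± 0.31 (limma, adjusted p = 0.0916), although the waters did not overlap there either.

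The study's lists hold 174 resistance loci. They were drawn up from differences between these same libraries, those between SW and FW included, so a high share of calls follows from the choice. Of the 174 loci, 135 were tested, and 54 were called higher and 1 lower, with a median log2 change of 1.04. Under quantile normalization 28 were called higher and 2 lower, with a median of 0.70, and with size factors 42 were called higher and 2 lower. Among the protein kinases of the same lists, chosen in the same way, 140 of 332 tested were called higher and 10 lower. Between the cultivars the listed resistance loci went both ways, with all 6 SR86 libraries above all R1 libraries at 48 loci and below at 39. So did every other class in the lists, with 51 and 87 for the kinases and 74 and 149 for the transposon loci. Going both ways was therefore no trait of the resistance loci.

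A stretch of chromosome 1 near LOC_Os01g35789 included 2 more of the calls. LOC_Os01g35830, an expressed protein, was at 26.6, 20.6 and 22.01 FPKM in SW, 8, 13.5 and 8.91 FPKM in FW and 0, 0.05 and 0 FPKM in R1. LOC_Os01g35930, a retrotransposon protein, was at 25.5, 24.9 and 26.7 FPKM in SW, 9.21, 12.4 and 12.3 FPKM in FW and 0, 0.20 and 0 FPKM in R1. The waters were apart at both loci. LOC_Os01g35830 rose by 1.17 ± 0.23 on the log2 scale (limma, adjusted p = 0.0233). LOC_Os01g35930 rose by 1.16 ± 0.16 (limma, adjusted p = 0.0134), a call lost without SW1 and kept when any other library was left out, but lost with size factors. The adjusted p of LOC_Os01g35830 went up to 0.0916 without SW1, and its call was also lost without SW2 or FW1.

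The remaining rises were in expressed proteins. LOC_Os01g35580 was at 81.3, 72.9 and 78.3 FPKM in SW, 35.1, 47.0 and 31.5 FPKM in FW and 0.36, 0.39 and 0.33 FPKM in R1. LOC_Os07g16930 was at 18.2, 18.7 and 18.5 FPKM in SW, 6.50, 9.84 and 10.9 FPKM in FW and 0.11, 0.09 and 0.03 FPKM in R1. At both loci the waters were well apart and the SW libraries lay close together. LOC_Os01g35580 rose by 1.04 ± 0.18 (limma, adjusted p = 0.0178) and LOC_Os07g16930 by 1.02 ± 0.21 (limma, adjusted p = 0.0266). Their calls were lost in 4 and 5 of the 6 fits with a library left out. Size factors ended both calls, and quantile normalization ended that of LOC_Os07g16930.

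The 2 loci called lower in salt water were a lipase and an expressed protein. LOC_Os01g11660, a GDSL-type lipase or acylhydrolase, an enzyme class that cleaves ester bonds, was at 6.68, 5.06 and 5.09 FPKM in SW, 11.4, 14.7 and 15.03 FPKM in FW and 0, 0 and 0.05 FPKM in R1. Its log2 change was -1.22 ± 0.20 (limma, adjusted p = 0.0169), with no overlap between the waters, and the call was lost without SW1, SW2 or FW2. LOC_Os04g11980, an expressed protein listed at 0 in R1, was at 5.93, 6.73 and 10.6 FPKM in SW and 16.4, 18.1 and 13.9 FPKM in FW. There too the waters were apart, the log2 change was -1.05 ± 0.24 (limma, adjusted p = 0.0326), and the call was lost in 4 of the 6 fits with a library left out.

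The most negative log2 change with all 6 libraries was not called. LOC_Os04g52980, an expressed protein listed at 0 in R1, was at 30.7, 9.28 and 43.0 FPKM in SW and 70.9, 81.8 and 74.5 FPKM in FW. All SW libraries were below all FW libraries, but SW2 stood far below the other SW libraries, and the log2 change of -1.69 ± 0.51 gave an adjusted p of 0.0591 by limma. Without SW2 the change was -1.05, less negative than the -1.15 of LOC_Os01g11660 in that fit. It passed without SW3 and in a fit of all 9 libraries. LOC_Os07g31670, an expressed protein, was at 44.1, 45.4 and 41.6 FPKM in SW, 80.6, 82.3 and 56.4 FPKM in FW and 0, 0 and 0.21 FPKM in R1. Its log2 change of -0.72 ± 0.18 passed the threshold of significance and not that of 2-fold (limma, adjusted p = 0.0371).

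Transposon-related loci showed no shared direction. Besides LOC_Os01g35930, the set held LOC_Os03g36550, an unclassified transposon at 10.9, 10.7 and 12.9 FPKM in SW, 5.18, 7.73 and 9.51 FPKM in FW and 0, 0.04 and 0 FPKM in R1. LOC_Os08g36880 and LOC_Os01g23850 belong to the CACTA type of DNA transposon, elements that move by being cut out and inserted elsewhere. LOC_Os08g36880 was at 10.9, 8.21 and 8.88 FPKM in SW and 10.7, 15.1 and 16.3 FPKM in FW and was listed at 0 in R1. LOC_Os01g23850 was at 8.20, 8.06 and 9.77 FPKM in SW, 7.60, 10.03 and 8.28 FPKM in FW and 0.04, 0.03 and 0.03 FPKM in R1. Their log2 changes were 0.62, -0.55 and 0.01, and limma called none of the 3. In the study's lists of transposon loci, 53 of 246 tested were called higher in SW and 23 lower. With size factors the calls were 40 higher and 29 lower, and under quantile normalization 28 higher and 31 lower. Over all features the calls were 1995 higher and 1017 lower. With size factors these became 1450 and 1383, and under quantile normalization 1165 and 1368. The direction among the listed loci thus depended on the scaling, as it did over all features. The lists were drawn up from differences between these libraries, so these calls do not describe transposons at large.

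Some loci varied more between replicates of 1 water than between the waters. The highest SR86 library was a median of 2.13 times the lowest over the 59 loci, against 1.83 times over the other loci at the floor. It was over 5 times the lowest at 7 loci, or 11.9% against 4.42%, and under 2 times at 27, or 45.8% against 59.6%. This ratio spans both waters, so it holds the change between them as well as the spread of replicates. At LOC_Os04g52980, among these 7 loci with a ratio of 8.82, all SW libraries lay below all FW libraries. The median standard deviation of log2(FPKM + 0.5) within SR86 FW was 0.31 for the loci and 0.23 for the others, and within SR86 SW it was 0.19 and 0.18.

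**Figure D3:**
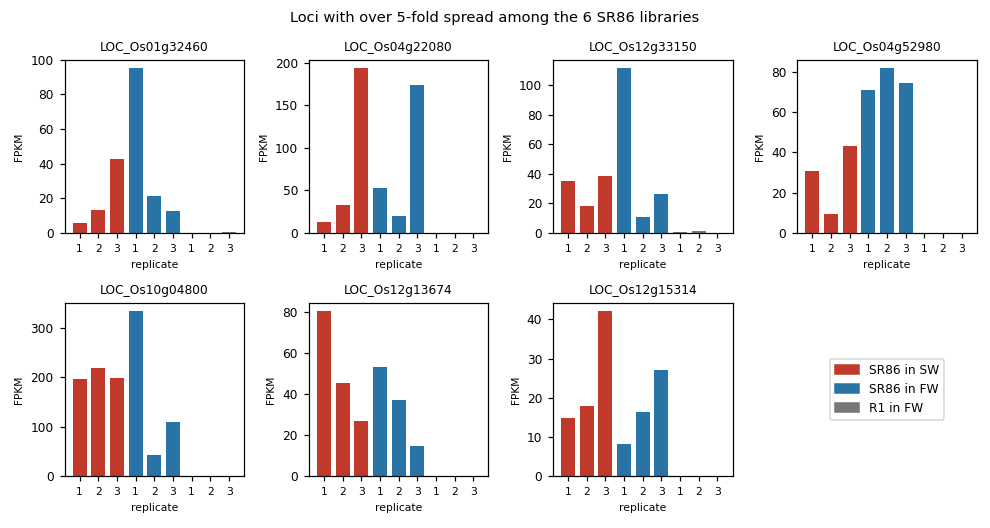
FPKM of the 7 loci whose highest SR86 library was over 5 times the lowest, with a bar for each replicate of SR86 in SW, SR86 in FW and R1 in FW, on a linear axis of its own for each locus. FW1 is the highest bar at LOC_Os01g32460, LOC_Os12g33150 and LOC_Os10g04800, and replicate 3 of both waters is the highest at LOC_Os04g22080 and LOC_Os12g15314.

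The retrotransposon locus LOC_Os04g22080 was at 12.3, 33.0 and 194 FPKM in SW, 52.3, 19.5 and 173 FPKM in FW and 0.07, 0.16 and 0 FPKM in R1. Replicate 3 was the highest in both waters. A highest replicate 3 in both waters was not a mark of the set, since it occurred at 10 of the loci, or 16.9%, and at 20.6% of the other loci at the floor. The replicate numbers are not stated to mark a shared batch or day.

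The following expressed proteins were picked for their spread after their values were seen. LOC_Os01g32460 was at 5.67, 13.3 and 42.4 FPKM in SW and 95.3, 21.3 and 12.4 FPKM in FW. LOC_Os12g33150 was at 35.1, 17.9 and 38.4 FPKM in SW and 112, 10.6 and 26.0 FPKM in FW. Both peaked in FW1, as LOC_Os10g04800 did, and FW1 was also the library with the highest sum of green-tissue markers, at 60.0 FPKM against 25.8 and 28.1 FPKM in FW2 and FW3, whose part in these peaks was not tested. FW1 was the highest FW library at 11 of the 59 loci and the lowest at 31. LOC_Os12g13674 was at 80.7, 45.6 and 26.9 FPKM in SW and 53.5, 37.3 and 14.5 FPKM in FW, and there replicate 3 was the lowest in both waters.

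The loci were unevenly spread over the genome. Chromosome 1 held 12 of them and chromosomes 10 and 12 held 8 each, which is 47.5% of the set, against 24.8% of all loci at or above the floor. Relative to those loci the set was densest on chromosome 10, with 1.38%, and on chromosome 12, with 1.37%, and sparsest on chromosome 9, with 0.165%. Locus numbers follow the order along a chromosome, and no coordinates were used.

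Members of the set often lay close together without being adjacent. No 2 of them were consecutive in the locus order. Another of the 59 loci lay within 10 features of 14 of them, or 23.7%, against 1.21% of the other loci at the floor, and within 20 features of 16 of them, or 27.1%, against 2.46%. These 16 loci formed 7 stretches of 2 or 3.

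**Figure D4:**
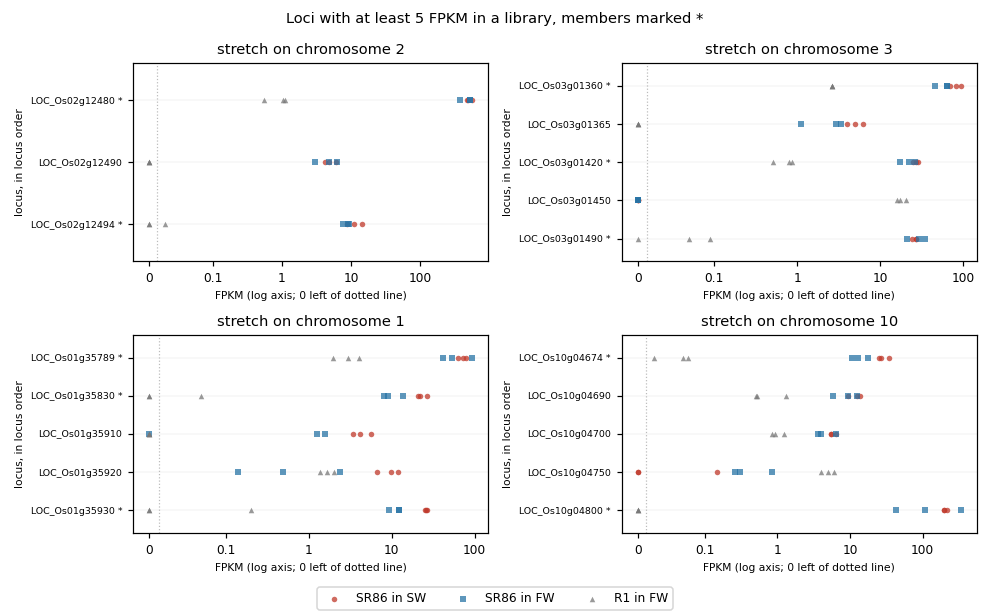
FPKM on a log axis of the loci in 4 of the 7 stretches that reached 5 FPKM in a library, in locus order, with SR86 in SW as circles, SR86 in FW as squares and R1 in FW as triangles. Loci of the set carry an asterisk, and between them LOC_Os03g01450 is listed at 0 in SR86 and at 15.98 to 20.8 FPKM in R1.

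In the stretch on chromosome 2, LOC_Os02g12480 lay near LOC_Os02g12494, a locus with no annotation at 8.64, 11.3 and 14.6 FPKM in SW, 7.71, 9.04 and 9.53 FPKM in FW and 0, 0.02 and 0 FPKM in R1. The ratio of its lowest SR86 to its highest R1 library, 386, was the highest among the 49 loci where it is defined, although the R1 value in it is close to the rounding of the table. The single locus between them, LOC_Os02g12490, an expressed protein, was at 4.83, 4.21 and 6.07 FPKM in SW and 2.98, 4.88 and 6.31 FPKM in FW and was listed at 0 in R1, so it missed the set by the floor alone.

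The stretch on chromosome 3 spanned 15 features and held LOC_Os03g01360, LOC_Os03g01420 and LOC_Os03g01490, all expressed proteins. LOC_Os03g01420 was at 28.3, 25.1 and 27.2 FPKM in SW, 17.1, 22.1 and 26.5 FPKM in FW and 0.80, 0.51 and 0.87 FPKM in R1. LOC_Os03g01490 was at 27.4, 24.3 and 27.1 FPKM in SW, 21.0, 29.2 and 34.7 FPKM in FW and 0.09, 0.05 and 0 FPKM in R1. Between these lay LOC_Os03g01450, which went the opposite way, listed at 0 in all 6 SR86 libraries and at 17.4, 20.8 and 15.98 FPKM in R1. It lay 4 features from each of them.

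Loci of the opposite pattern were counted by the mirrored rule, with every R1 library at 5 FPKM or more and at 8 or more times the highest SR86 library. It was met by 73 loci. LOC_Os03g01420 and LOC_Os03g01490 were the only 2 of the 59 loci with such a locus within 5 features. Within 10 features there were 5, or 8.47%, against 2.23% of the other loci at the floor, the other 3 being LOC_Os03g01360, LOC_Os01g72740 and LOC_Os06g50490. LOC_Os03g01360, LOC_Os03g01420 and LOC_Os03g01490 all lay near the same mirrored locus, LOC_Os03g01450, so the 5 are not separate cases.

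A mix of directions was also seen on chromosome 10, where LOC_Os10g04674 and LOC_Os10g04800 bounded a stretch of 13 features. Between them LOC_Os10g04690, an expressed protein, was at 9.34, 12.5 and 13.7 FPKM in SW, 5.87, 9.54 and 12.4 FPKM in FW and 0.53, 0.51 and 1.33 FPKM in R1. The F-box loci LOC_Os10g04700 and LOC_Os10g04750, whose products select proteins for degradation, differed from each other. OsFBX361 (LOC_Os10g04700) was at 5.41, 5.43 and 6.38 FPKM in SW, 3.63, 4.03 and 6.44 FPKM in FW and 0.94, 0.84 and 1.24 FPKM in R1. OsFBX362 (LOC_Os10g04750) was at 0.15, 0 and 0 FPKM in SW, 0.31, 0.85 and 0.26 FPKM in FW and 3.99, 6.09 and 4.95 FPKM in R1. All SR86 libraries were thus above R1 at OsFBX361 and below R1 at OsFBX362.

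The remaining stretches lay on chromosomes 1 and 12. LOC_Os01g37210 and LOC_Os01g37280, both expressed proteins near the limits of the rule, enclosed the F-box locus LOC_Os01g37260, which was at 4.62, 5.33 and 5.06 FPKM in SW, 2.55, 3.61 and 4.37 FPKM in FW and 0.05, 0.03 and 0 FPKM in R1. LOC_Os12g15222 lay near LOC_Os12g15314, and LOC_Os12g16280 near LOC_Os12g16240, with no other locus at 5 FPKM between the pairs. LOC_Os12g16280 was at 10.9, 13.5 and 7.89 FPKM in SW, 8.25, 11.0 and 10.9 FPKM in FW and 0.42, 0.38 and 0.36 FPKM in R1, far below its neighbour in both cultivars.

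**Figure D5:**
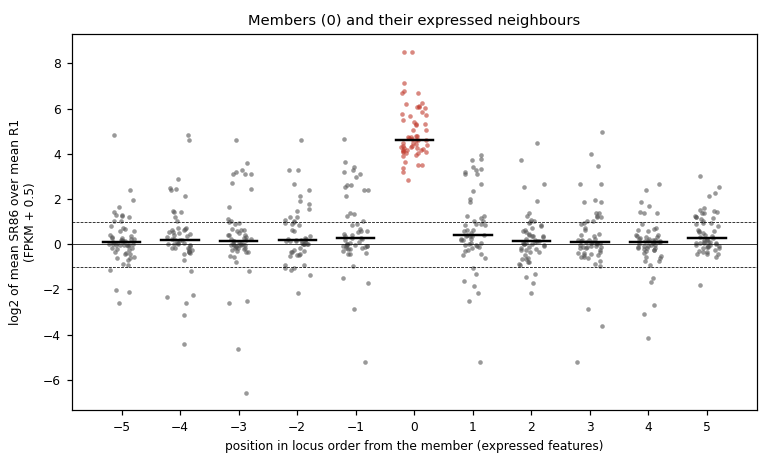
Log2 of the mean of SR86 over the mean of R1, on FPKM + 0.5, for the 59 loci at position 0 and for the loci up to 5 positions away among those with at least 5 FPKM in a library, with black bars at the medians and dashed lines at 2-fold. The SR86 mean is over both waters. The medians of the neighbours lie within the 2-fold lines, and neighbours beyond 2-fold are more often higher in SR86 than lower.

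Expressed neighbours of the 59 loci differed between SR86 and R1 more often than other loci, in both directions. The SR86 mean used here was taken over its 6 libraries in both waters, and R1 was in fresh water only. A change of SR86 with the water therefore enters these ratios. Of the 472 distinct loci within 5 expressed positions, 20.6% were at least 2-fold higher in SR86 and 7.84% at least 2-fold lower, against 12.3% and 4.63% of all 17217 expressed loci outside the set. Immediately beside a locus of the set, among 105 loci, the shares were 30.5% and 9.52%. The neighbours shared the libraries that chose the set, and their values are given with no test. The median log2 ratio of SR86 to R1 was 0.13 over the 472 neighbours and 0.10 over all expressed loci outside the set, and 71.6% of the neighbours were within 2-fold of each other in the cultivars.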

How the data were processed

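Root mRNA of SR86 in SW, SR86 in FW and R1 in FW was sequenced in 3 libraries per group. The authors mapped the reads to the MSU6 transcript set with Bowtie2, estimated expression with RSEM and deposited FPKM values rounded to 2 decimals, 1 column per library. The labels also list CASAVA 1.8. Absolute depth is not in the table, so that no counting interval was computed. Because the unit is FPKM and not counts, limma 3.58.1 in R 4.3.3 took the place of the count test of the study, with the same thresholds, a mean-dependent variance and no covariate. Fold changes and p-values in the tables of the study were not used, and annotation was taken from those tables. The fit was checked on simulated data. Loci named were the 20 with a function and the 6 others with the highest SR86 means, the loci called between SW and FW, those nearest each limit of the rule, and examples of stretches, lists and spread. The loci and lists were chosen with earlier results of these data known. Alternatives were other pseudocounts, filters and scalings, a fit of all 9 libraries, a replicate block, the omission of each library, and other limits of the rule. The reference gene table matched 0 of the locus names, so sequences and coordinates were not used here. Python 3.11.15, pandas 2.3.3, numpy 2.4.6 and matplotlib 3.10.9 were used.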

Additional observations from a re-analysis of the deposited data

How the results depend on the processing

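Of the choices in the rule, the floor moved the set most. It held 181 loci with a floor of 1 FPKM, 31 with a floor of 10 FPKM and 107 when group means replaced single libraries, against 59. A ratio of 4 gave 76 loci and a ratio of 16 gave 50. Median-ratio size factors gave 60 loci, 56 of them shared with the 59, and leaving out a library gave 60 to 70, the most without FW1.

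The calls between SW and FW were 8 in all. Without a filter on low values there were 0 in all, 0 higher and 0 lower, with 57931 features tested by limma and 17 of the loci at an unadjusted p under 0.05. With median-ratio size factors there were 4 in all, 2 of them higher. With a pseudocount of 1 only 1 was lower. With a library left out, the count ranged between 0 and 9 in all, 0 and 7 higher, and 0 and 3 lower. LOC_Os02g12480 turned to a log2 change of -0.059 with size factors, and ranged between -0.053, without FW1, and 0.20 with a library left out. The replicate block gave 6 in all, with 1 lower, losing LOC_Os01g35830 and LOC_Os04g11980. Same-numbered libraries of the waters deviated together with correlations of -0.06, 0.01 and 0.15 across features, so the numbers were not taken to pair the samples. Loci with a mirrored locus nearby were 0 within 2 features and 5 within 10, against 2 within 5. Runs of members were 0 when consecutive and 3 at up to 5 features apart.

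Values near 0 in R1 rest on few reads and on 2 decimals, so ratios to them are rough. With 3 libraries per group, the calls moved with single libraries. R1 in SW was not analysed here.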

Other observations

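The 73 loci of the mirrored pattern, high in R1 and low in SR86, included loci of higher level than any of the 59. LOC_Os10g41980, annotated as the precursor of RALFL26, a peptide of the rapid alkalinization factor family, was at 33.8, 44.7 and 57.8 FPKM in SR86 SW, 82.3, 116 and 136 FPKM in SR86 FW and 2447, 2752 and 2204 FPKM in R1. LOC_Os01g03360, annotated as the Bowman-Birk trypsin inhibitor BBTI5, a class that blocks protein-digesting enzymes, was at 36.9, 100.4 and 39.1 FPKM in SR86 SW, 91.4, 37.1 and 76.2 FPKM in SR86 FW and 1498, 1183 and 1751 FPKM in R1. LOC_Os12g43380, a thaumatin-like locus, was at 1.00, 0.98 and 5.38 FPKM in SR86 SW, 2.08, 0.76 and 2.11 FPKM in SR86 FW and 347, 232 and 436 FPKM in R1. These loci were picked after their values were seen.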
